A study of Sus scrofa with 12 samples.

Results

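Proteasome subunit genes were examined in maps of C/EBP-β binding from pig endometrium, the lining of the uterus. The set comprised every protein-coding gene on an assembled chromosome whose symbol starts with PSMA, PSMB, PSMC or PSMD and a digit, other than PSMB8 and PSMB9. This gave 38 of 19550 protein-coding genes. PSMC3IP enters by its symbol alone and encodes a meiotic recombination factor, so 37 of the genes encode proteasome subunits or assembly factors. The rule uses symbols and not measured values, though it was set with earlier results of these data known.

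The proteasome is the protease that degrades ubiquitin-tagged proteins in the cytosol and nucleus. Its barrel-shaped core particle is built of rings of α subunits (PSMA), which gate the entry, and β subunits (PSMB), of which PSMB5, PSMB6 and PSMB7 carry the proteolytic sites. A regulatory particle of ATPases (PSMC) and non-ATPase subunits (PSMD) binds, unfolds and feeds in the substrate. C/EBP-β is a leucine zipper factor that binds DNA and acts in inflammation, metabolism and the preparation of the uterine lining for pregnancy.

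ChIP-seq of whole, formaldehyde-fixed endometrial tissue compared gestation day 12 with day 15, each represented by 3 libraries made with the same C/EBP-β antibody (Abcam ab32358). Data of the 6 input samples were not analysed here. Breed, age and treatment are not in the labels, which also do not say whether replicates came from separate animals. The cell types in the tissue could not be checked, since peak lists hold no expression.

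The lists of peak summits differ in length and in the form of their peak names. They hold 6557 to 57728 summits on day 12 and 11960 to 70152 on day 15, and they carry no read counts, so depth is unknown. Peak names divide them into set A (day 12 replicate 1, day 15 replicates 2 and 3, with a directory path in the name) and set B (day 12 replicates 2 and 3, day 15 replicate 1). The labels do not say what these sets stand for. The peak names of day 15 replicate 3 do not name the protein, those of day 12 replicate 1 name it only in the directory, and day 15 replicates 2 and 3 share a sample code. The lowest score is 2.02 in day 12 replicate 1 and 1.31 to 1.37 in the others. Lists differing in depth cannot be compared by score, so each summit is described by its score percentile. This is its rank from the lowest score in its own list, in % of the list, with tied summits given their mean rank. Positions are on the build susScr11 (Sscrofa11.1), counted from 1. A gene had a summit when it lay within 5 kb of either end, because the annotation gives no strand, and was called bound on a day with a summit in at least 2 of 3 libraries. Differences between days could not pass a test for any single gene, since 3 against 3 libraries give no p below 0.1 by Fisher's exact test.

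Summits lay near most proteasome genes, and near more of them on day 15. On day 12, 19 of 38 members (50%) were bound, against 38.1% of all protein-coding genes. On day 15 it was 29 of 38 (76.3%), against 46.3%. Both days shared 18 members (47.4%, against 30.5%), and 8 members (21.1%, against 13.1%) had a summit in all 6 libraries. These 8 were PSMA3, PSMA5, PSMB1, PSMB3, PSMC2, PSMC3, PSMC4 and PSMD2. At the other extreme, 3 members had no summit in any library (7.89%, against 29.5%) and 2 had a summit in 1 library (5.26%, against 10.4%). The day 12 count rests on 2 libraries, falling to 10 without day 12 replicate 2 (16.6% of all genes) and to 8 without day 12 replicate 3 (15% of all genes), where both remaining libraries had to have a summit.

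**Figure D1:**
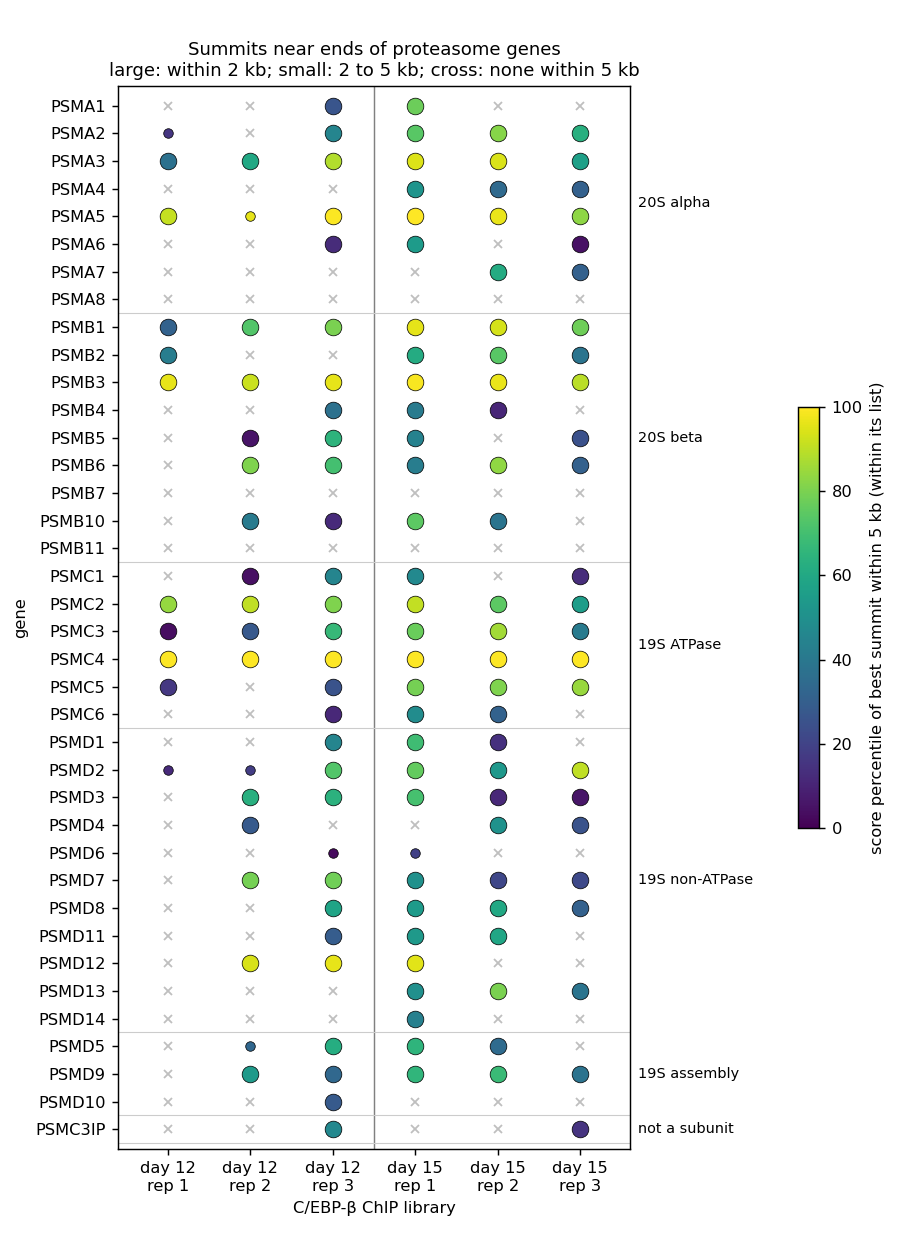
Each row is a proteasome gene, grouped by role, and each column a ChIP library. Large circles mark a nearest summit at up to 2 kb from an end, small circles one at 2 to 5 kb and crosses a more distant one, and the colour gives the score percentile of the best summit within its own list; PSMC4, PSMB3 and PSMA5 are bright throughout, and day 12 replicate 1 has the fewest circles (11 of 38).

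The number of members with a summit followed the libraries. On day 12, replicates 1 to 3 had a summit at 11, 18 and 29 members (28.9%, 47.4% and 76.3%), where all genes gave 17.2%, 38.4% and 54.1%. On day 15 the numbers were 31, 26 and 24 (81.6%, 68.4% and 63.2%), where all genes gave 64.8%, 44.6% and 37.6%. In each of the 6 libraries the share of members exceeded that of all genes, by 8.93 points (day 12 replicate 2) to 25.6 points (day 15 replicate 3).

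The mean share of members with a summit was 50.9% ± 23.9 on day 12 and 71.1% ± 9.49 on day 15 (SD, n = 3 each). The difference of 20.2 percentage points is smaller than the spread between the day 12 libraries, and the values of the days overlap, since day 12 replicate 3 lies above day 15 replicates 2 and 3. Over all protein-coding genes the difference was 12.4 points. Within set A the members differed by 36.8 points and within set B by 19.7 points. All protein-coding genes differed by 23.9 points in set A and 18.5 points in set B, so the set B difference of the members was near that of all genes. Set A holds the shorter lists, with 6557 summits on day 12 and 16529 and 11960 on day 15. Set B holds the longer ones, with 33294 and 57728 on day 12 and 70152 on day 15. In each set the day 15 lists are longer than the day 12 lists. Day therefore cannot be told apart from list length within a set. Without day 12 replicate 1 the members' difference was 9.21 points, and without day 12 replicate 3 it was 32.9. The difference over all genes moves the same way. These replicates also have the lowest and the highest day 12 share of all genes (17.2% and 54.1%).

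**Figure D2:**
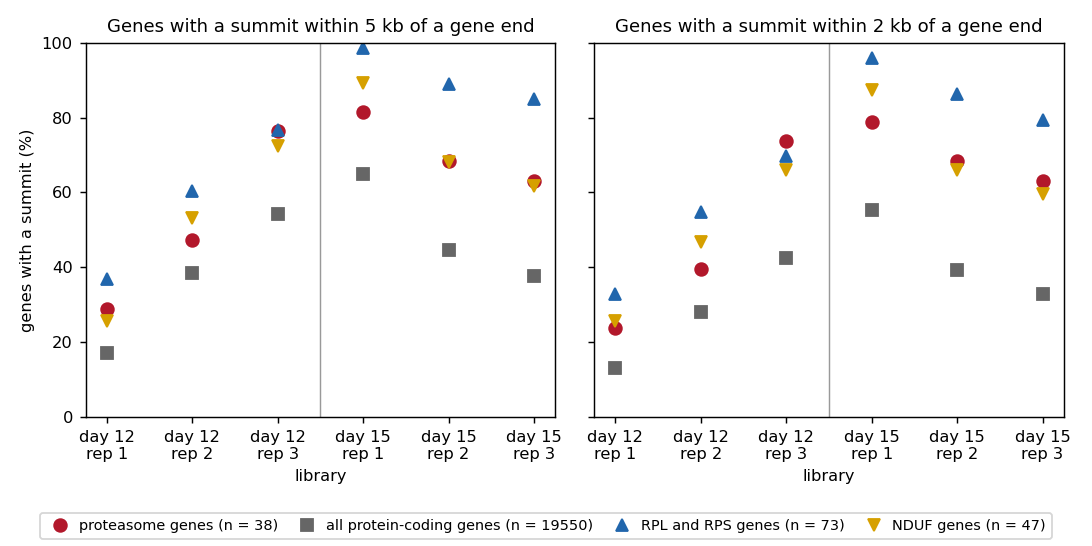
Share of genes (%) whose nearest summit lies at up to 5 kb (left) and 2 kb (right) from an end, in each library, for proteasome genes, all protein-coding genes, cytosolic ribosomal protein genes (RPL and RPS) and NDUF genes of respiratory complex I. Proteasome genes lie above all genes in every library in both panels, and at 5 kb they lie below ribosomal protein genes, narrowly so in day 12 replicate 3 (76.3% against 76.7%).

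A window of 2 kb gave 16 members bound on day 12 (42.1%, against 27.7% of all genes) and the unchanged number of 29 on day 15 (76.3%, against 40.4%), with 15 on both days (39.5%, against 23%). PSMD12 was again the 1 member bound on day 12 and not on day 15 (2.63%, against 4.69%), and 14 members were bound on day 15 and not on day 12 (36.8%, against 17.5%). Within 2 kb, 6 members had a summit in all 6 libraries (15.8%, against 9.71%), since PSMA5 and PSMD2 fell short in day 12 libraries. PSMA4 and PSMD13 were the 2 with 3 of 3 on day 15 and 0 of 3 on day 12 (5.26%, against 3.44%), and 0 showed the reverse (0.0102% of all genes). PSMD6 joined the members without a summit, which made 4 (10.5%, against 38.9%). More libraries had a summit on day 15 for 21 members (55.3%, against 35.4%) and on day 12 for 2 (5.26%, against 7.51%).

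The 26 and 24 members of day 15 replicates 2 and 3 all had their summit within 2 kb (68.4% and 63.2%, against 39.4% and 32.8% of all genes). In the 139 pairs of a member and a library with a summit within 5 kb, the nearest summit lay within 500 bp of a gene end in 107, inside the gene in 74 pairs and outside in 65. By library the share within 500 bp was 45.5%, 55.6% and 72.4% on day 12, against 53.8%, 41.3% and 50.1% of all genes with a summit. On day 15 it was 83.9%, 92.3% and 87.5%, against 62.0%, 71.3% and 70.7%. Day 12 replicate 1 was the library where the members' share was below that of all genes. The median distance in the members was 853, 379 and 193 bp in day 12 replicates 1 to 3 and 188, 104.5 and 110 bp in day 15 replicates 1 to 3. Over all genes with a summit it was 383, 789.5 and 497 bp, and 297, 202 and 189 bp. Members were nearer to their summit than all genes in 5 libraries and farther in day 12 replicate 1.

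**Figure D3:**
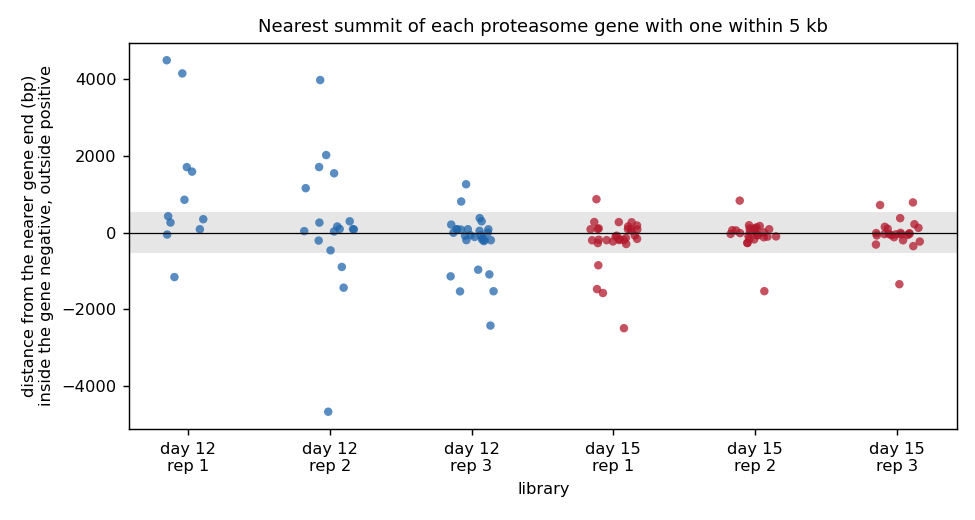
Distance in bp of the nearest summit from the nearer end of each proteasome gene that has a summit within 5 kb, by library, with summits inside the gene below zero and those outside above; horizontal scatter only separates points. The grey band spans 500 bp on either side of the end, and holds 24 of 26 members in day 15 replicate 2 against 5 of 11 in day 12 replicate 1.

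As a group the members lie in a more compact and gene-dense setting than all genes, by median length and by neighbours within 10 kb. Their median length was 13.4 kb, against 20.7 kb for all protein-coding genes, and 89.5% had an end of another protein-coding gene within 10 kb of an end, against 64.7%. Among all genes with such a neighbour 42.4% were bound on day 12 and 54.3% on day 15, against 30.1% and 31.5% of those without. The part of this setting in the members' counts was not tested. Within 1 kb, 12 of 38 members had a neighbour, as did 5473 of all 19550 genes. Of these 12 members 10 were bound on day 15 (83.3%, against 67% of all genes with such a neighbour), and of the remaining 26 members 19 were (73.1%, against 38.2%). Examples of such pairs are PSMB1 with TBP (152 bp apart), PSMC2 with DNAJC2 (85 bp), PSMD13 with SIRT3 (34 bp) and PSMA2 with MRPL32 (108 bp). A summit between such neighbours counts for both genes.

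Among the α subunits of the core, which form its outer rings, 3 of 8 genes were bound on day 12 (37.5%, near the 38.1% of all genes) and 6 of 8 on day 15 (75%, against 46.3%). PSMA5 carried the strongest sites of the group. Its best summit reached percentiles 91.2, 96.1 and 99.4 in day 12 replicates 1 to 3 and 99.8, 96.6 and 83.0 in day 15 replicates 1 to 3. In each library this summit lay 2477 to 2537 bp from the lower-coordinate end, inside the gene, in a region shared by all 6 libraries (chromosome 4, 110697906 to 110697966). Another region of 5 libraries lay 169 bp outside the same end (110695054 to 110695260), so the gene has a frequent site at its end and a higher-scoring site within the gene.

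PSMA3 had summits in all 6 libraries with wider spread, at best percentiles of 37.4, 59.8 and 88.5 on day 12 and 94.8, 94.2 and 56.5 on day 15. Its shared region lay 2441 bp outside the lower end (chromosome 1, 187339566 to 187339790), and a second of 5 libraries lay 1141 bp inside the gene. PSMA4 differed completely between the days. Its nearest summit on day 12 was 112340, 25448 and 25445 bp away, while on day 15 it was 142, 91 and 121 bp from the higher end, at percentiles 51.7, 34.2 and 30.7. The days do not overlap for PSMA4, and the day 15 sites are of middling or low rank. PSMA8, which encodes the testis-specific α subunit of spermatoproteasomes, had no summit within 5 kb in any library, the nearest being 8833 bp away in day 15 replicate 1. The remaining members of the group were PSMA1 with 2 libraries, PSMA2 with 5, PSMA6 with 3 and PSMA7 with 2, the latter from day 15 replicates 2 and 3 alone.

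Of the β subunit genes, 5 of 9 were bound on day 12 (55.6%, against 38.1% of all genes) and 7 of 9 on day 15 (77.8%, against 46.3%). PSMB3, a structural subunit gene, had high-ranking summits throughout, at percentiles 96.1, 92.1 and 96.3 on day 12 and 99.1, 96.6 and 89.6 on day 15. They lay 784 to 888 bp outside the higher end, in a region shared by all 6 libraries (chromosome 12, 23358400 to 23358504). PSMB1, also structural, shared a site of all 6 libraries at chromosome 1, 22217 to 22285, 1542 bp outside its lower end. That site is inside the neighbouring TBP gene, which encodes the TATA-binding protein, 1390 bp from an end of TBP. Its percentiles for PSMB1 were 31.1, 72.7 and 80.0 on day 12 and 96.0, 93.4 and 78.1 on day 15.

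Further summits of PSMB1 lay at its own end, at 85 bp in day 12 replicate 3 and at 77, 4 and 216 bp in the day 15 libraries. In day 12 replicates 1 and 2 the nearest was the site in TBP. For PSMB2 a single region lay across the higher end (chromosome 6, 91829872 to 91829992). Its nearest summit was 52 bp away in day 12 replicate 1, but 22309 and 22260 bp away in replicates 2 and 3, and it was 50, 70 and 18 bp away in the day 15 libraries. The best percentile of PSMB2 was 42.0 in day 12 replicate 1 and 61.3, 73.9 and 38.5 in the day 15 libraries. Set A therefore has this site in all of its libraries, and set B only on day 15.

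The genes of the proteolytic subunits differed among themselves. PSMB6 (caspase-like site) had a region of 5 libraries across its higher end (chromosome 12, 52098123 to 52098435), with the nearest summit 158 and 85 bp away in day 12 replicates 2 and 3 and 271, 55 and 41 bp away on day 15. The nearest summit of day 12 replicate 1 lay 5601 bp away, just outside the window. PSMB5 (chymotrypsin-like site) had summits 209 and 157 bp inside its lower end in day 12 replicates 2 and 3, and 174 and 354 bp inside it in day 15 replicates 1 and 3. In the remaining 2 libraries, both of set A, the nearest was more than 11 kb away. The best percentiles of PSMB5 ranged from 5.37 to 64.5, so none of its summits ranked high.

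PSMB7 (trypsin-like site) had no summit within 5 kb of an end in any library. The nearest lay 69124, 25936 and 69150 bp away on day 12 and 10644, 69134 and 69148 bp away on day 15. PSMB10, the interferon-inducible counterpart of PSMB7 in the immunoproteasome, was bound on both days, with a summit in 4 libraries. Those of day 12 replicates 2 and 3 and day 15 replicate 1 lay 896, 968 and 853 bp inside the higher end, and that of day 15 replicate 2 lay 7 bp from it. PSMB11, the thymus-specific subunit gene, had none within 5 kb, and summits about 8 kb away in 4 libraries are those of PSMB5, its neighbour. PSMB4 had a summit in 3 libraries.

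The 6 ATPase genes were bound most often, 5 on day 12 (83.3%, against 38.1% of all genes) and all 6 on day 15 (100%, against 46.3%). Of them, 3 had a summit in all 6 libraries (50%, against 13.1%). With 6 genes the difference from the other groups is a description. PSMC4 had the top site of the whole set. Its summit lay 86, 79 and 86 bp outside the lower end in day 12 replicates 1 to 3 and 85, 86 and 99 bp outside it in day 15 replicates 1 to 3. It ranked 4, 36 and 134 in the day 12 lists and 21, 16 and 6 in the day 15 lists, all above percentile 99.7. The 6 summits span chromosome 6, 48406138 to 48406158, and the nearest end of another protein-coding gene was 12559 bp from them.

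PSMC2 also had summits in all 6 libraries, with best percentiles of 84.1, 90.2 and 80.7 on day 12 and 90.9, 74.9 and 55.2 on day 15. These lay 1698 to 1733 bp outside its lower end, on the side of DNAJC2 (chromosome 9, 103360951 to 103360986). A weaker region of 4 libraries (mean percentile 21.5) lay across the shared ends of PSMC2 and DNAJC2, a co-chaperone gene. PSMC3 had a region of all 6 libraries across its lower end (chromosome 2, 15185222 to 15185553), with summits 260, 36 and 71 bp away on day 12 and 157, 68 and 148 bp away on day 15. Its best percentiles ran from 3.80 in day 12 replicate 1 to 86.1 in day 15 replicate 2. PSMC1, PSMC5 and PSMC6 had a summit in 4, 5 and 3 libraries. PSMC3IP had summits 4 and 9 bp from an end in day 12 replicate 3 and day 15 replicate 3 and was bound on neither day.

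**Figure D4:**
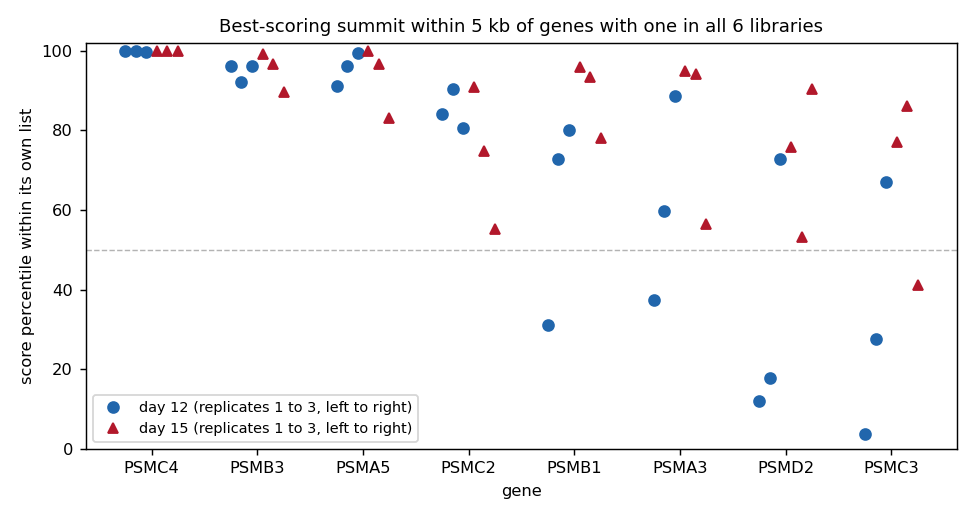
Score percentile, within its own list, of the best summit within 5 kb of the 8 proteasome genes that have a summit in all 6 libraries. Circles are day 12 and triangles day 15 libraries; PSMC4 lies above 99.7 in all, PSMB3 and PSMA5 at 83.0 or above, and PSMC3, PSMD2, PSMB1 and PSMA3 spread widely.

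Among the 11 non-ATPase subunit genes of the regulatory particle, 4 were bound on day 12 (36.4%, near the 38.1% of all genes) and 8 on day 15 (72.7%, against 46.3%). PSMD2, which encodes a large scaffold subunit, was the single gene of the group with a summit in all 6 libraries. In day 12 replicates 1 and 2 the nearest summit lay 4143 and 3970 bp outside the higher end, in a region that spans an end of EIF4G1, a translation initiation factor gene (chromosome 13, 122203367 to 122203626). That region was also present in the 3 day 15 libraries, where it held the best summit of PSMD2, at percentiles 75.9, 53.2 and 90.3. In day 12 replicate 3 and the day 15 libraries a further summit lay inside the lower end, at 5, 232, 166 and 75 bp. Within 2 kb, the PSMD2 count was therefore 1 of 3 libraries on day 12 against 3 of 3 on day 15.

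PSMD13, a lid subunit gene, had no summit within 5 kb on day 12, the nearest being 219015, 55164 and 8590 bp away. On day 15 summits lay 273, 108 and 52 bp from its lower end, at percentiles 49.8, 80.0 and 38.5, where the neighbouring SIRT3 also ends. PSMD8, another lid gene, had a summit 115 bp inside its lower end in day 12 replicate 3, none within 17 kb in day 12 replicates 1 and 2, and summits at 105, 269 and 313 bp on day 15. Its region lies at chromosome 6, 47289996 to 47290204, and its best percentiles ran from 30.7 to 60.1. PSMD3 and PSMD7 had a summit in 5 libraries each, PSMD1, PSMD4 and PSMD11 in 3, and PSMD6 in 2, 1 per day. PSMD14, which encodes the deubiquitinase of the lid, had a single summit within 5 kb, 1575 bp inside the gene in day 15 replicate 1.

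PSMD12 went the other way, as the only member bound on day 12 and not on day 15 (2.63%, against 7.61% of all genes). It had high-ranking summits in the 3 set B libraries, at percentiles 93.8 and 96.4 in day 12 replicates 2 and 3 and 95.6 in day 15 replicate 1, in a region 1102 bp outside the lower end (chromosome 12, 13702981 to 13703010). In the 3 set A libraries the nearest summit lay 16330, 11263 and 11337 bp away. PSMD12 was the only member with a summit in 3 of 3 set B and 0 of 3 set A libraries, a pattern found for 5.87% of all genes, and 0 members showed the reverse (0.0205%).

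The assembly factors PSMD5, PSMD9 and PSMD10 help to build the regulatory particle and leave it on completion. PSMD9 had a summit in 5 libraries and PSMD5 in 4. PSMD10 (also known as gankyrin) had a single summit, 1090 bp inside its higher end in day 12 replicate 3, and otherwise none within 185 kb.

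Complete separation of the days was rare. Within 5 kb, PSMA4 and PSMD13 had summits in 3 of 3 libraries on day 15 but 0 of 3 on day 12, that is 5.26% of members against 2.83% of all genes. No member had 3 of 3 on day 12 and 0 of 3 on day 15 (0.0307% of all genes). By the call of at least 2 of 3 libraries, 11 members were bound on day 15 and not on day 12 (28.9%, against 15.8%), and PSMD12 alone on day 12 and not on day 15. PSMB2 and PSMD8 had 3 of 3 on day 15 and 1 of 3 on day 12. A further count is by number of libraries: 18 members had more libraries with a summit on day 15 (47.4%, against 35.3%), 2 had more on day 12 (5.26%, against 11.2%) and 18 had equal numbers. The 2 with more on day 12 were PSMD12 and PSMD10. Fisher's exact test over the 6 libraries called 0 of 19550 genes after Benjamini-Hochberg adjustment, and 0 at an unadjusted p under 0.05, which this design cannot reach.

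Joining summits of any library within 200 bp gave 88 regions within 5 kb of a member's end. Of these, 29 came from 1 library (33.0%, against 46.5% of the 28685 regions within 5 kb of any protein-coding gene), and 7 had a summit in all 6 (7.95%, against 4.46%). Within 500 bp of a member's end lay 47 regions, and 2 of them were shared by all 6 libraries, those of PSMC4 and PSMC3. Between 500 bp and 5 kb lay 41 regions, and 5 of them were shared by all 6, those of PSMB3, PSMB1, PSMC2, PSMA3 and PSMA5. Around all genes, 63.4% of the regions shared by 6 libraries lay within 500 bp of an end of any gene, whereas the members' distances are from their own ends. The constant regions of the members had a median mean percentile of 79.3, against 76.4 for those of all genes.

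Regions at the gene ends and those farther out were found in different numbers by the libraries. Of the 47 within 500 bp, day 12 replicates 1 to 3 had a summit in 5, 11 and 23, and day 15 replicates 1 to 3 in 31, 25 and 21. Of the 41 farther out, the numbers were 8, 15 and 28, and 32, 11 and 10. Day 15 replicates 2 and 3 thus had larger shares of the near regions than of the far ones (53.2% against 26.8%, and 44.7% against 24.4%). In day 12 replicates 1 to 3 the share of the far regions was larger (19.5%, 36.6% and 68.3%, against 10.6%, 23.4% and 48.9%). It was also larger in day 15 replicate 1 (78.0%, against 66.0%). Distance is from the member's own end, and some far regions lie at an end of another gene, as at EIF4G1. Among the 12 regions with exactly 3 libraries, 7 had the 3 libraries of set B and 0 the 3 of set A. These 7 lay at PSMD12 (2 regions), PSMB10, PSMD7, PSMA5, PSMD3 and PSMD5, from 225 to 4659 bp from an end. Set B holds the longer lists, and the share among 3-library regions around all genes was not counted. By gene the same lean is general. A summit in 3 of 3 set B and 0 of 3 set A libraries was found for 5.87% of all genes, and the reverse for 0.0205%. Of the 47 near regions, 18 came from day 15 alone (38.3%, against 46.2% around all genes) and 6 from day 12 alone (12.8%, against 8.69%). Around all genes a near region is one within 500 bp of an end of any gene, so the compared sets are not defined alike.

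**Figure D5:**
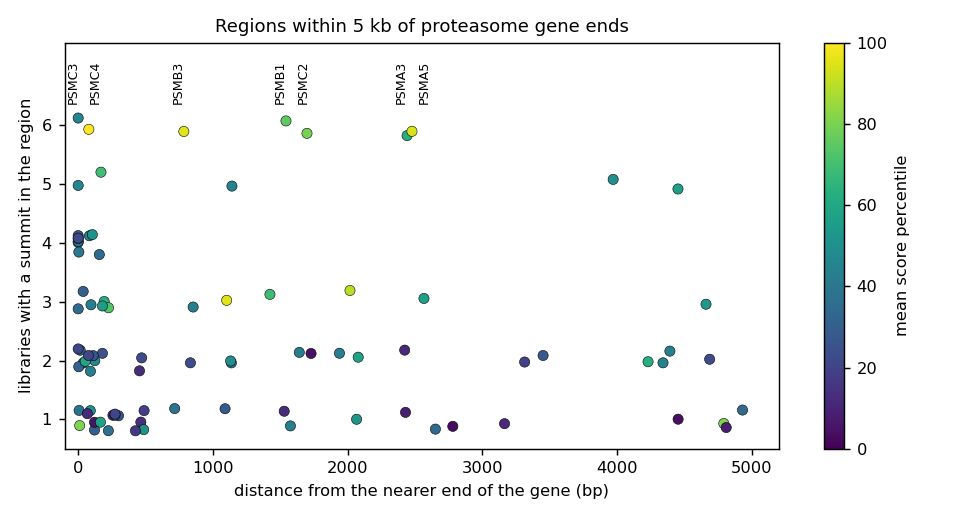
The 88 regions near proteasome genes by distance in bp from the nearer gene end and number of libraries with a summit (points are jittered vertically), coloured by mean score percentile. The 7 regions of 6 libraries are named by gene; 5 of them lie between 784 and 2477 bp from the end, while regions of 4 libraries all lie within 500 bp.

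The regions near members had a median mean percentile of 41.9, against 39.4 for those near all genes. The median best percentile of members with a summit was 37.4, 61.4 and 58.4 in day 12 replicates 1 to 3, against 47.2, 57.0 and 62.7 for all genes. In day 15 replicates 1 to 3 it was 65.5, 64.4 and 38.3, against 66.8, 64.3 and 60.3. The members thus ranked below all genes by the widest margin in day 15 replicate 3, and the counts of bound members depend on the lower-ranking summits. When each list was cut to its 6557 highest-scoring summits, 5 members were bound on day 12 (13.2%, against 9.68% of all genes) and 8 on day 15 (21.1%, against 20.3%). The day 15 share of members was then near that of all genes. In these equal lists the members bound on day 12 were PSMA5, PSMB3, PSMC2, PSMC4 and PSMD12, and those of day 15 PSMA2, PSMA3, PSMA5, PSMB1, PSMB3, PSMC2, PSMC4 and PSMC5. PSMA5, PSMB3 and PSMC4 kept a summit in all 6 libraries (7.89%, against 3.53%), and 22 members had none (the share of all genes was not counted). The full separation of PSMA4 and PSMD13 between days was lost, since PSMA4 then had none and PSMD13 a summit in 1 library. With full lists and a score of at least 5, the day 12 share of members was 26.3%, near the 26.6% of all genes, and the day 15 share 52.6%, against 36.2%.

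Other genes needed broadly for protein supply or respiration also lay above the share of all genes (38.1% bound on day 12, 46.3% on day 15). Of 73 genes of cytosolic ribosomal proteins, 43 (58.9%) were bound on day 12 and 67 (91.8%) on day 15, and of 47 NDUF genes of complex I 24 (51.1%) and 31 (66%). The proteasome genes, at 50% and 76.3%, lie below both groups on day 12 and between them on day 15. No test of these differences was made.

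Genes that act with the proteasome were examined from a list of 26, of which 23 matched the annotation as protein-coding genes. Values are given for some of those with a summit in all 6 libraries, taken in alphabetical order. Of the 23, 14 (60.9%, against 38.1% of all genes) were bound on day 12 and 17 (73.9%, against 46.3%) on day 15. In all 6 libraries 9 had a summit (39.1%, against 13.1%). Sites were strong at the polyubiquitin gene UBB, whose summits lay 69 to 111 bp from an end in all 6 libraries, at percentiles from 98.7 to 99.9. NFE2L1, the gene of the factor that drives proteasome genes when the proteasome is inhibited, had summits 147 to 320 bp from an end in all libraries, at percentiles from 79.3 to 96.0. Its relative NFE2L2 had a summit in 1 of 3 libraries on each day.

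PSME1 and PSME2, which encode the interferon-inducible activator cap of the core, had a summit in all 6 libraries, PSME2 within 1167 bp of an end in each. They lie close together on chromosome 7 and are not independent counts. In day 12 replicate 1 the same summit serves both, 2932 bp from PSME1 and 1027 bp from PSME2. The assembly chaperone gene PSMG1 also had a summit in all 6 libraries, at 7 to 547 bp but at percentiles from 7.18 to 56.7. ADRM1, the gene of a ubiquitin receptor of the regulatory particle, had summits 45 to 1465 bp from an end in all 6 libraries. UBA1, the gene of the main ubiquitin-activating enzyme, had them 2878 to 3209 bp from an end. SEM1 and PSMG4 had none within 45 kb in any library.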

How the data were processed

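The submitters' processing notes name the tools MACS2 2.1.2, Bowtie2 2.3.5.1 and SAMtools 1.9 and the build susScr11, without saying how each was used; peak names show that MACS2 style summits were deposited. How peaks were thresholded, whether input was used and how duplicates were treated is not given in the sources used here. For each library the authors deposited 1 list of peak summits whose score is taken as a −log10 value, as MACS2 writes it; whether a p-value or a q-value underlies it is unknown.

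Here, only summits on assembled chromosomes were used, with positions counted from 1. Regions were formed by joining neighbouring summits of any library up to 200 bp apart. Gene ends came from the RefSeq table of Sscrofa11.1, matched by symbol; it holds no strand or sequence, so the planned motif counts and gene-start alternative were not run. Python 3.11.15, pandas 2.3.3 and scipy 1.17.1 were used, and the distance code was tested on simulated lists. Fisher's exact test with a Benjamini-Hochberg threshold of 0.05 was run on all 19550 genes. Named were the members in all 6 libraries, those at 3 of 3 libraries against 0 or 1, those in no or 1 library, and the proteolytic subunits; of the other pathway genes, up to 8 in alphabetical order were to be named, and 1 of these is not reported here. NFE2L2, SEM1, PSMG4, PSMD12 and the remaining members were named after their values were seen. Members and lists were chosen with earlier results of these data known. P-values measure only the spread between these libraries, which may be technical.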

Additional observations from a re-analysis of the deposited data

How the results depend on the processing

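Windows of 2 kb, the gene body with 5 kb either side, a score of at least 2 and leaving out PSMC3IP kept every count of members within 1.5 times. With a window of 1 kb, 11 members were bound on day 12 (28.9%, against 21.2% of all genes), 10 on both days and 3 in all 6 libraries (7.89%, against 7.59%, near the background). With a score of at least 5 the counts were 10 on day 12 (26.3%, against 26.6%) and 7 on both days. With a score of at least 10 they were 8 on day 12 (21.1%, against 14%), 12 on day 15 (31.6%, against 20.3%), 5 on both days, 3 in all 6 libraries (7.89%, against 2.95%) and 1 at 3 of 3 on day 15 and 0 of 3 on day 12 (2.63%, against 2.6%, near the background). Lists of equal length gave 5, 8, 4, 3 and 0 for the same counts. Requiring all 3 libraries of a day gave 8, 18 and 8 for day 12, day 15 and both days (the last 21.1%, against 13.1% of all genes). Leaving out each library gave 8 to 19 members on day 12, 20 to 29 on day 15, 8 to 16 on both days and 8 to 12 in all remaining libraries. For 2 to 3 members all remaining libraries of day 15 and none of day 12 had a summit. A day that lost a library needed a summit in each remaining one. The share of all genes moves with that rule too, as given above for day 12 replicates 2 and 3. Counts in this paragraph without a share of all genes beside them describe the settings and are not read as a trait of the members. The members' difference in mean share stayed positive under all of these settings, from 7.89 points with equal lists to 36.8 points within set A. The sign is not particular to the members. All genes differed by 23.9 points within set A, and with equal lists their mean share was also higher on day 15, by a similar margin to the members. With equal lists 17.2%, 9.44% and 9.67% of all genes had a summit in day 12 replicates 1 to 3, and 10.5%, 24.4% and 24.3% in day 15 replicates 1 to 3. The members' shares were 28.9%, 15.8% and 10.5%, and 18.4%, 36.8% and 23.7%, the last below all genes. Single members turned direction (day 15 minus day 12, points of libraries) in 5 cases: PSMD14 with the gene body (-33.3), PSMD3 and PSMD7 with a score of at least 5 (-33.3 each), and PSMB6 (-33.3) and PSMD7 (-66.7) with a score of at least 10. The cause was not tested. With the replicate block (sign-flip over 3 numbers, smallest p 0.25) 0 genes were called, as with permutation within sets A and B (smallest p 0.111). Deviations of same-numbered libraries from their day means correlated at -0.257, 0.000676 and -0.201. Each such pair joins a set A and a set B library, so these values cannot show whether the numbers mark pairs. Across days, libraries of the same set correlated at 0.0748, 0.237, 0.0499 and 0.231. The numbers were not treated as pairing.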

Other observations

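Inside the longer genes, farther than 5 kb from both ends, 15 regions were found in 7 members, and 10 of them came from 1 library. PSMD14, 101.5 kb long, had 4 of them. Those at chromosome 15, 68140537 to 68140572 and 68144303 to 68144396, each had a summit in day 12 replicates 2 and 3 and day 15 replicate 1, the 3 libraries of set B, at mean percentiles of 70.8 and 66.4. PSMB7, which had no summit near an end, had 4 interior regions of 1 library each. PSMD12 had 3 interior regions of 1 library each, and PSMD1, 104.6 kb long, had 1.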
